A study of Trichoderma asperellum with 9 samples.

Results

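The models described here are 119 of the 9396 gene models of Trichoderma asperellum strain Ts93 whose transcript level was highest with BCS, intermediate in the control and lowest with copper. They are called stepwise models below. Trichoderma asperellum is a filamentous soil fungus used for biological control of plant pathogens. All 9 libraries came from wild-type Ts93: 3 with 1 mM copper ions, 3 with 0.5 mM BCS and 3 controls, and the labels give no other difference between the groups. BCS is left unexpanded in the labels. The letters commonly stand for bathocuproine disulfonate, which chelates copper, and that reading is background here. The labels give no medium, culture age or exposure time, and no statement that the 3 libraries per group are separate cultures, so their spread may be technical only.

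Copper is a cofactor of enzymes such as cytochrome c oxidase and copper/zinc superoxide dismutase, and is toxic in excess. In the yeast Saccharomyces cerevisiae the factor Mac1 switches on genes for copper reductases and for copper permeases of the Ctr family when copper is scarce, and is inactive when copper is plentiful. Another factor, Ace1, does the opposite for metallothioneins, which bind surplus copper. This is textbook knowledge of yeast and assigns no role to any model below. A RefSeq table of another strain, FT101, lists 12041 genes, and 0 of the 9396 identifiers matched it. The FPKM table holds no name, function or sequence for them either. Models here are therefore described by identifier, length and level.

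Levels are FPKM, the authors' fragment counts scaled by model length and library size, so that levels of different models can be compared per length. A log2 ratio compares group means after adding 1 to each, log2((mean FPKM + 1)/(mean FPKM + 1)), which understates the ratio of weakly expressed models. The stepwise models were chosen by these measured values, on 5 conditions. The log2 ratio of copper against control was at most -0.5, and the log2 ratio of BCS against control was at least 0.5. Every BCS value exceeded every control value, every control value exceeded every copper value, and the mean with BCS was at least 5 FPKM. Since all 9 libraries entered these conditions, the differences between groups below describe how the models were chosen and carry no test.

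Taken one at a time, the conditions were met by 829 models for the copper ratio, 1156 for the BCS ratio, 1115 for BCS above control, 927 for control above copper and 6105 for the level with BCS. The models that missed 1 condition only numbered 34, 9, 31, 37 and 5 in the same order. Several values lay close on either side of a limit. The log2 ratio of copper against control was -0.502 for the nearest model inside and -0.493 for the nearest outside. The log2 ratio of BCS against control was 0.537 and 0.488 for the corresponding models, and the mean with BCS was 5.38 and 4.59 FPKM. The lowest BCS value was 1.004 times the highest control value in the nearest model inside and 0.996 times in the nearest outside. For the lowest control value over the highest copper value these ratios were 1.018 and 0.998. With copper and BCS exchanged, the same conditions were met by 154 models. Which of the counts was larger depended on the scaling: 171 models fell stepwise and 110 rose stepwise by these conditions after median-of-ratios scaling, and 164 and 125 after quantile normalization. On the TPM scale 90 fell and 184 rose. Without BCS replicate 2 the counts were 125 and 280.

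Library depth, recovered from the FPKM values, was 12335534 to 12836226 reads with copper, 12338460 to 14851276 with BCS and 13198011 to 17142918 in the control. A stepwise model had a median of 107 to 142 reads in a copper library, 1096 to 1279 in a BCS library and 382 to 508 in a control library. In 19 of the 119 models at least 1 copper library held fewer than 10 reads. In these models the level with copper is known only within a wide counting error. Of the stepwise models, 2 were listed at 0 in copper replicate 1, where a count of 0 allows up to 3 reads (0.299 FPKM for Novel01226 and 0.61 FPKM for 93-3_5.6A2174, counting error only).

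As a group, the stepwise models made up a larger part of the transcriptome with BCS than in the control, and a smaller part with copper. They held 0.743% ± 0.103 of all FPKM with copper, 4.37% ± 0.846 with BCS and 1.42% ± 0.213 in the control (mean ± SD, n = 3 libraries each). By library these shares were 0.671%, 0.861% and 0.696% with copper, 5.32%, 4.09% and 3.69% with BCS, and 1.65%, 1.23% and 1.39% in the control. Models chosen again without copper replicate 1 held 1.49%, 6.05% and 2.39% with copper, with BCS and in the control. Without BCS replicate 2 these shares were 1.60%, 6.72% and 2.70%, and without control replicate 3 they were 1.77%, 7.54% and 3.01%. The 5 models most abundant with BCS held 29.5% to 50.7% of the summed FPKM of the group in a library. The median over the stepwise models, taken anew in each library, was therefore also followed. This median was 5.82 to 7.41 FPKM in copper libraries, 57.7 to 88.7 FPKM in BCS libraries and 19.8 to 21.8 FPKM in control libraries.

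The models spanned a wide range of sizes of response. Their median log2 ratio was -0.94 for copper against control (range -3.50 to -0.50) and 1.33 for BCS against control (range 0.54 to 6.04). Over all 7857 tested models, which reached 1 FPKM in 3 or more libraries, the medians were 0.11 and -0.07. Directly between the treatments, the median log2 ratio of copper against BCS was -2.57 in the stepwise models and 0.22 over all tested models. In terms of mean FPKM, 80 of the 119 stepwise models had at least 4 times as much transcript with BCS as with copper, 38 at least 16 times and 13 at least 64 times.

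**Figure D1:**
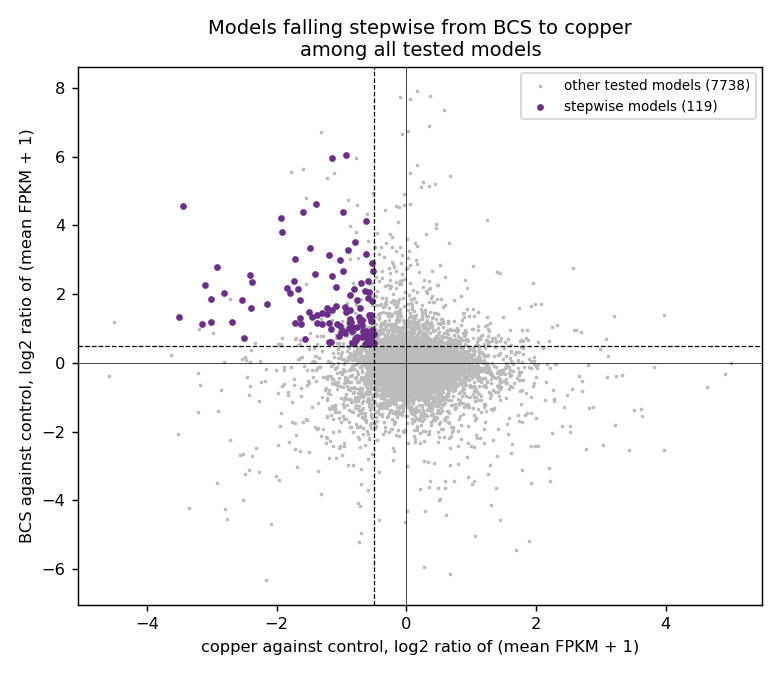
Each point is 1 of 7857 tested models, placed by its log2 ratio of copper against control (x axis) and of BCS against control (y axis), with 119 stepwise models in purple and the limits of 0.5 and -0.5 as dashed lines. The stepwise models fill the upper left quadrant, from close to the limits out to 6.04 for BCS and -3.50 for copper; grey points in that quadrant missed another condition.

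**Figure D2:**
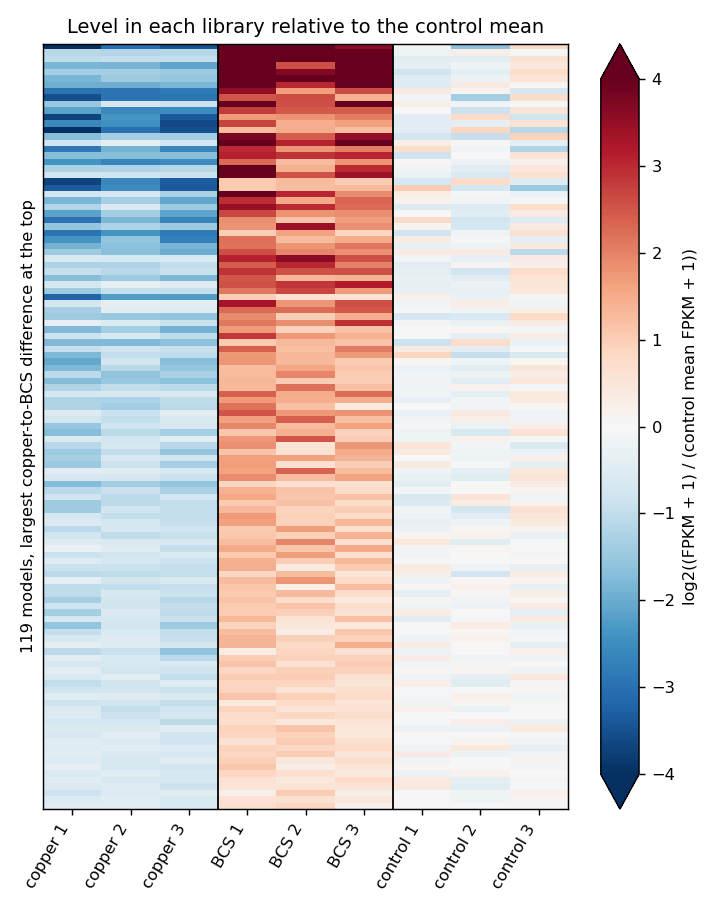
Rows are the 119 stepwise models, columns the 9 libraries, and colour gives log2((FPKM + 1)/(control mean FPKM + 1)), capped at 4 and -4. The copper columns are blue and the BCS columns red in every row, and the strongest rows at the top differ visibly between BCS libraries.

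All 119 models passed the same filter on low values, and 98 reached 1 FPKM in all copper libraries. A limma model fitted to all 7857 tested models, with Benjamini-Hochberg adjustment, called 57 stepwise models lower with copper than in the control, where 2.89% of all tested models were called lower. It called 104 higher with BCS than in the control, where 7.24% of all tested models were called higher, and 119 lower with copper than with BCS, where 11.5% were. Both calls against the control were made for 51 stepwise models, and for 0.649% of all tested models. Those 51 are all the models of the table that limma called lower with copper and higher with BCS. The count of 57 changed when a library was left out. It was 29, 35 and 27 without copper replicates 1, 2 and 3, and 37 without control replicate 3. Over all tested models the share called lower fell as well, to 1.53%, 1.61%, 1.39% and 1.78% in the same order. Without BCS replicate 2 the count was 72, and the share 4.24%. Of the other stepwise models, 53 were called against the control for BCS alone, 6 for copper alone and 9 for neither. Scaling moved the balance of calls over all tested models. With copper against control, 523 were called higher and 227 lower. These counts were 373 and 388 after median-of-ratios scaling, 414 and 386 after quantile normalization, and 914 and 192 on the TPM scale. With copper against BCS, 1876 were called higher and 906 lower. After median-of-ratios scaling these counts were 1407 and 1434, and after quantile normalization 1451 and 1373. Because the conditions used the same values, these counts say only how strict the conditions are next to the test. Separation of the libraries, which the conditions demanded of every stepwise model, held for 10.9% of tested models with copper below control, 12.8% with BCS above control and 16.7% with copper below BCS.

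The largest rises with BCS belonged to 93-3_5.6A4341 and 93-3_5.6A6875, named because their log2 ratios of BCS against control were the highest of the group. Model 93-3_5.6A4341 (coding length 2607 bases) had 15.3, 16.4 and 16.4 FPKM with copper, 1851.6, 2276.5 and 2304.8 FPKM with BCS, and 23.4, 22.7 and 48.9 FPKM in the control. Its lowest BCS value was 37.9 times its highest control value. The copper libraries lay close together and below the control, and control replicate 3 stood apart from the other controls. The mean with BCS was 67.7 times that of the control, and the mean of the control 1.97 times that with copper. The log2 ratios were 6.04 for BCS and -0.94 for copper, and the copper difference was not called by limma. Without control replicate 3 the log2 ratio for copper was -0.49, just outside the limit.

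Model 93-3_5.6A6875 (coding length 720 bases) had 7.66, 7.18 and 7.36 FPKM with copper, 1057.8, 1308.6 and 1110.7 FPKM with BCS, and 15.3, 21.1 and 16.5 FPKM in the control. In each group its libraries were close together, with an SD of 0.241 FPKM with copper, 132.2 with BCS and 3.06 in the control. The mean with BCS was 65.8 times that of the control. The mean of the control was 2.38 times that with copper. In both models most of the log2 span from copper to BCS lay between the control and BCS, a share of 0.87 in 93-3_5.6A4341 and 0.84 in 93-3_5.6A6875.

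The lowest log2 ratios of copper against control were those of 93-3_5.6A6871 and 93-3_5.6A5268. Model 93-3_5.6A6871 (coding length 1584 bases) had 2.05, 6.53 and 4.28 FPKM with copper, 142.8, 167.0 and 138.0 FPKM with BCS, and 42.7, 107.9 and 25.9 FPKM in the control. The control libraries were widely spread, and control replicate 2 came near the BCS libraries, the lowest of which was 1.28 times as high. Its log2 ratio was -3.50 for copper and 1.33 for BCS, so that most of its span lay between copper and the control. Without control replicate 2 the log2 ratios were -2.74 for copper and 2.09 for BCS, a more even split.

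Model 93-3_5.6A5268 (coding length 267 bases) had 15.5, 32.2 and 23.1 FPKM with copper, 11581.9, 4246.6 and 3214.6 FPKM with BCS, and 246.6, 84.8 and 465.8 FPKM in the control. No library of 1 group came within 2.64 times of a library of another group, although the values within BCS and within the control differed several-fold. Its log2 ratio of copper against BCS, with 1 added to each mean, was -8.01, the lowest of all stepwise models. Its mean with BCS was 269.4 times that with copper. Both of its steps were large, with a log2 ratio of 4.57 for BCS and -3.44 for copper. The number of reads behind these values was 51 to 108 with copper and 11557 to 38155 with BCS.

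Among models not yet named, Novel01756 and 93-3_5.6A6572 had the lowest log2 ratios of copper against BCS. Identifiers of the type of Novel01756, called supplementary models here, stand beside the numbered ones in the deposited table, and no source used here explains their origin. Novel01756 (length 2569 bases) had 0.631, 0.588 and 0.334 FPKM with copper, 168.7, 33.5 and 119.0 FPKM with BCS, and 3.45, 4.06 and 6.9 FPKM in the control. Copper libraries were near the limit of detection, at 11 to 20 reads. Model 93-3_5.6A6572 (coding length 732 bases) had 0.886, 0.869 and 0.745 FPKM with copper, 195.3, 60.6 and 96.3 FPKM with BCS, and 1.76, 2.71 and 7.02 FPKM in the control. In both models BCS replicate 2 was the lowest of the BCS libraries and control replicate 3 the highest of the controls. The copper values of 93-3_5.6A6572 rest on 7 to 8 reads, and its copper difference from the control was not called by limma. Its log2 ratio for copper was -1.40, and -0.82 without control replicate 3.

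The most abundant stepwise model with BCS, 93-3_5.6A4905 (coding length 873 bases), was abundant in every condition. It had 1360.5, 2338.3 and 1723.2 FPKM with copper, 7034.6, 6772.1 and 5265.7 FPKM with BCS, and 4242.2, 3517.3 and 2674.3 FPKM in the control. Both of its steps were below 2-fold, 1.92-fold between control and copper and 1.83-fold between BCS and control. Limma called it lower with copper than with BCS and called neither comparison with the control. Model 93-3_5.6A5268 came next in level with BCS, at a mean of 6347.7 FPKM against 6357.5 FPKM for 93-3_5.6A4905, a difference far inside the SD of 4562.2 and 954.5 FPKM.

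**Figure D3:**
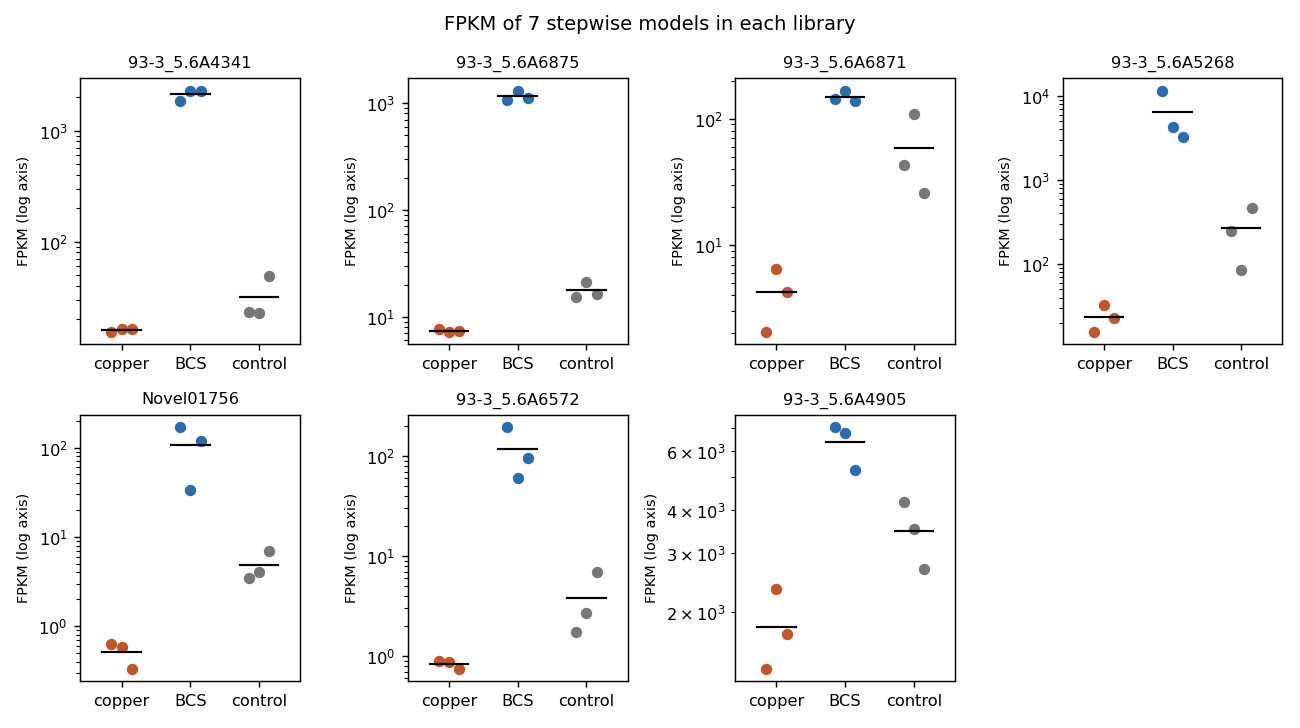
FPKM on a log axis for the 7 models named by rule, with 1 point per library and a line at the mean of each group (n = 3). The groups do not overlap in any panel; the scales differ, from below 1 FPKM with copper in Novel01756 to 11581.9 FPKM with BCS in 93-3_5.6A5268.

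The place of the control between the treatments differed from model to model. As a share of the log2 span from copper to BCS, the part between control and BCS was above 0.67 in 32 models, between 0.33 and 0.67 in 80 and below 0.33 in 7. The 32 models with a mainly BCS-sided span had median levels of 4.31 FPKM with copper, 64.8 FPKM with BCS and 8.2 FPKM in the control. Their median log2 ratios were -0.78 for copper and 2.60 for BCS. The 80 evenly divided models had median levels of 12.3, 64.8 and 29.8 FPKM in the same groups, and median log2 ratios of -0.95 and 1.14. The 7 models with a mainly copper-sided span had median levels of 5.42 FPKM with copper, 122.6 FPKM with BCS and 58.9 FPKM in the control, with median log2 ratios of -2.69 and 1.12. Both ratios use the same control libraries, so a high control library lengthens one and shortens the other.

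Some stepwise models were close to undetected with copper and were measured at a higher, though at times low, level in the control. In 17 models every copper library was below 1 FPKM, and 13 of these had at least 1 FPKM in every control library. One of them, 93-3_5.6A0675 (coding length 816 bases), picked here with its values known, had 0.0993, 0.0974 and 0.191 FPKM with copper, 76.5, 33.6 and 65.6 FPKM with BCS, and 1.95, 4.43 and 3.37 FPKM in the control. The copper values are 1, 1 and 2 reads, against 407 to 770 reads with BCS and 21 to 62 in the control. Model 93-3_5.6A2174, also among the 13 and also picked with its values known, was lower in the control. It had 1.14, 1.17 and 2.69 FPKM there, from 6, 8 and 18 reads. At the other end, 22 stepwise models kept a mean of at least 100 FPKM with copper, 56 reached it with BCS and 35 in the control.

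The gaps between groups were narrow in many models and wide in a few. The lowest BCS library was at least 2 times the highest control library in 41 models. The lowest control library was at least 2 times the highest copper library in 28 models. Both gaps were that wide in 14 models. The median gap was 1.59-fold between BCS and control and 1.44-fold between control and copper. The spread of a stepwise model within a group had a median SD of 0.18 log2 units with copper, 0.38 with BCS and 0.34 in the control, compared with 0.18, 0.32 and 0.25 over all tested models.

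No condition named an order of the libraries inside a group, and the stepwise models did not follow the order of other models. The conditions did act on single library values, so which library was high or low could affect the choice. The comparison with all tested models is therefore not free of that choice. BCS replicate 1 was the highest BCS library in 70 of 119 stepwise models (58.8%), and in 15.2% of all tested models. BCS replicate 2 was the highest in 37 (31.1%), and in 67.6% of all tested models. With copper, replicate 2 was the highest in 61 stepwise models (51.3%) and in 26.9% of all tested models. In the control, replicate 3 was the highest in 59 (49.6%) and in 34.5%. These figures describe 9 libraries that all models share, so the models are not independent of each other. The BCS libraries also differed in scale: median-of-ratios size factors were 0.816, 1.113 and 0.862 for BCS replicates 1, 2 and 3. After that scaling, an alternative chosen after the data were seen, BCS replicate 1 was the highest in 73.9% of stepwise and 33.5% of all tested models, and copper replicate 2 in 63.9% and 37.2%.

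**Figure D4:**
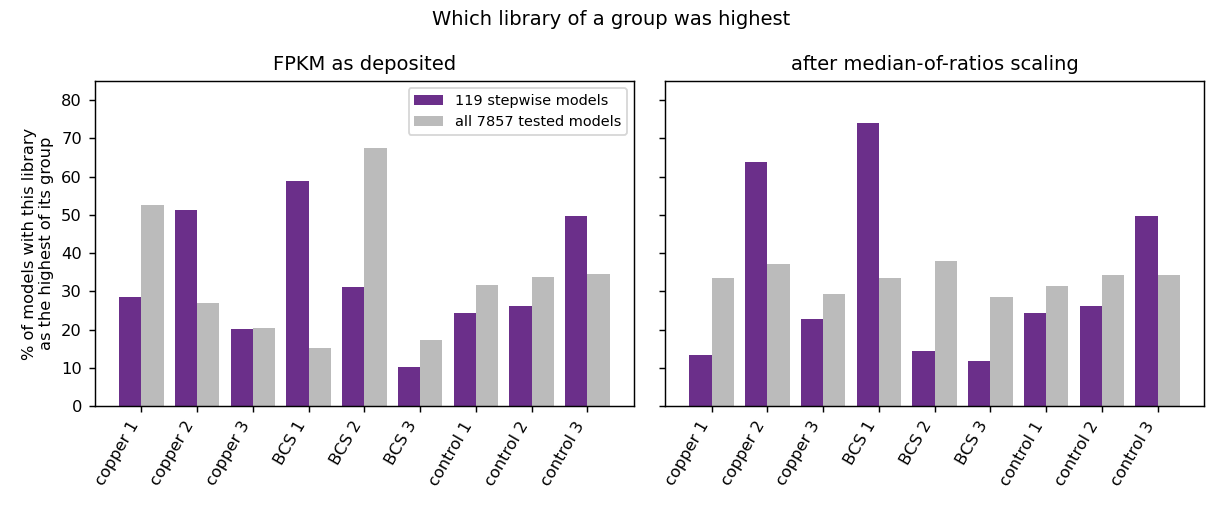
Bars give the percentage of models in which a library was the highest of its own group, in purple for the 119 stepwise models and in grey for all 7857 tested models, from FPKM as deposited (left) and after median-of-ratios scaling (right). BCS replicate 1, copper replicate 2 and control replicate 3 stand out in purple in both panels, while the grey bars of the BCS libraries depend on the scaling.

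From FPKM as deposited, BCS replicate 2 was the lowest BCS library in 53 stepwise models and the highest in 37. After median-of-ratios scaling it was the lowest in 82 (68.9%) and the highest in 17 (14.3%), so the split described next belongs to the deposited scale. In 13 models it was at most 0.5 times the mean of the other BCS libraries, and in 17 it was at least 1.5 times that mean. The 13 models had a median log2 ratio of 3.34 for BCS against control and -1.20 for copper against control. The 17 models had medians of 1.65 and -0.85, and the 89 models between had 1.17 and -0.90. A mean with BCS at least 16 times that with copper was seen in 10 of the 13, 6 of the 17 and 22 of the 89. The conditions required every BCS library to exceed every control library. A model with 1 low BCS library therefore qualified only if its mean with BCS lay well above the control. The lowest log2 ratio for BCS was 1.49 among the 13, and 0.54 among the 17 and among the 89. The differences between these classes are thus partly set by the choice of models and carry no test. Of the 15 stepwise models with a log2 ratio of at least 3 for BCS against control, 9 had BCS replicate 2 as the lowest BCS library and 11 had BCS replicate 1 as the highest.

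A pair of models, singled out after their values were seen, shows both patterns. Model 93-3_5.6A6633 (coding length 1089 bases) had 6.1, 6.13 and 6.8 FPKM with copper, 266.5, 44.1 and 133.1 FPKM with BCS, and 14.2, 11.6 and 21.8 FPKM in the control. Model 93-3_5.6A2634 (coding length 855 bases) had 175.8, 150.0 and 185.0 FPKM with copper, 850.2, 1469.5 and 506.4 FPKM with BCS, and 232.6, 288.2 and 248.1 FPKM in the control. BCS replicate 2 was the lowest BCS library in 93-3_5.6A6633 and the highest in 93-3_5.6A2634. In 93-3_5.6A2634 the libraries of the copper and control groups differed much less from each other than those of the BCS group.

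Single control libraries also stood apart in some stepwise models. Control replicate 3 was at least 2 times the next control library in 11 models (9.24%, against 1.67% of all tested models), among them 93-3_5.6A4341 and 93-3_5.6A6572. Control replicate 2 was that far above the others in 4 models (3.36%, against 1.85%). Control replicate 1 was so in 3 models (2.52%), a smaller share than the 4.71% of all tested models. Model 93-3_5.6A1187, picked here with its values known, is one of the last 3. It (coding length 591 bases) had 115.2, 203.2 and 113.8 FPKM with copper, 2427.9, 2756.8 and 2856.3 FPKM with BCS, and 2374.5, 709.4 and 415.9 FPKM in the control. Its lowest BCS library was thus only 1.02 times as high as its highest control library, while the other controls lay well between the treatments.

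Model numbers were compared because 3 of the stepwise models carry consecutive ones. Of the 119 models, 89 are numbered and 30 are supplementary (25.2%, against 18.3% of all tested models). Among the 176 numbered models whose number is 1 away from that of a stepwise model, 5 are stepwise models themselves (2.84%), and stepwise models make up 1.26% of all 7043 numbered models. Within 3 numbers, 10 of 505 are stepwise models (1.98%). Both the 5 and the 10 include the 3 consecutive models that prompted the comparison, so these percentages carry no test. No source used here says whether the numbers follow the order of genes in the genome. Over 5978 pairs of consecutive tested models, the log2 ratios of copper against BCS correlated at Pearson's r = 0.20 and Spearman's rho = 0.16, as a description of models that share all libraries.

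The consecutive models are 93-3_5.6A6870, 93-3_5.6A6871 and 93-3_5.6A6872, and 93-3_5.6A6875 lies 3 numbers further; 93-3_5.6A6870 and 93-3_5.6A6872 were singled out after their values were seen. Model 93-3_5.6A6870 (coding length 1014 bases) had 4.0, 11.9 and 5.38 FPKM with copper, 210.4, 228.2 and 267.6 FPKM with BCS, and 47.7, 109.5 and 36.7 FPKM in the control. Model 93-3_5.6A6872 (coding length 1425 bases) had 3.36, 8.26 and 4.65 FPKM with copper, 117.0, 135.9 and 114.8 FPKM with BCS, and 33.7, 95.3 and 39.0 FPKM in the control. In each of the 3 consecutive models copper replicate 2 was the highest copper library and control replicate 2 the highest control library, at least 2 times the next. With BCS, replicate 3 was the highest in 93-3_5.6A6870 and replicate 2 in the other models. Copper replicate 2 was the highest copper library in 51.3% of all stepwise models. Only 4 stepwise models had control replicate 2 that far above, and these 3 are among them; the other is 93-3_5.6A3719. Their log2 ratios were -3.02, -3.50 and -3.15 for copper and 1.85, 1.33 and 1.12 for BCS.

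The models around them did not show both steps. Model 93-3_5.6A6869 had mean levels of 93.0 FPKM with copper, 118.0 FPKM with BCS and 112.6 FPKM in the control. Model 93-3_5.6A6873 was low in all groups, at 2.18 FPKM with copper, 2.6 FPKM with BCS and 7.76 FPKM in the control. Its log2 ratio was -1.46 for copper, with every copper value below every control value, and -1.28 for BCS. Model 93-3_5.6A6874 was close to 0 throughout. Model 93-3_5.6A6875 shared the order of the groups with the consecutive models, but its control libraries lay near its copper libraries and far below its BCS libraries.

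**Figure D5:**
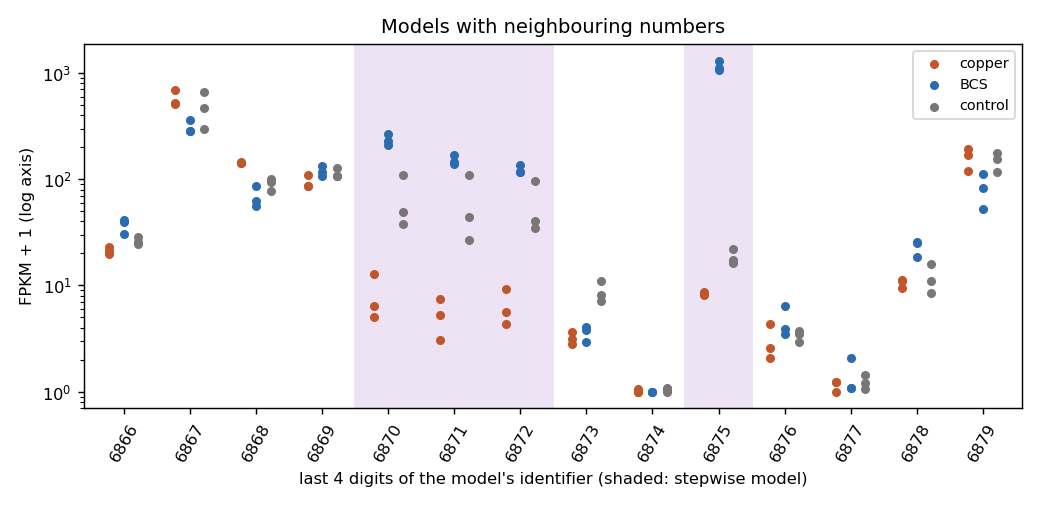
FPKM + 1 on a log axis in each of the 9 libraries for the models numbered 6866 to 6879, in the order of their numbers, with stepwise models shaded. In the 3 consecutive shaded models the copper points lie far below the control points, whereas in 93-3_5.6A6875 the BCS points lie far above both other groups.

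Other stepwise models with numbers at most 3 apart were 93-3_5.6A4306 and 93-3_5.6A4307, 93-3_5.6A6631 and 93-3_5.6A6633, and 93-3_5.6A1152 and 93-3_5.6A1155. The pair 93-3_5.6A4306 and 93-3_5.6A4307 had log2 ratios of -1.56 and -0.84 for copper and 0.70 and 0.94 for BCS. The pair 93-3_5.6A6631 and 93-3_5.6A6633 had -0.90 and -1.20 for copper and 3.28 and 3.14 for BCS, while the model between them, 93-3_5.6A6632, had -0.13 and -0.02. The pair 93-3_5.6A1152 and 93-3_5.6A1155 had -1.37 and -1.63 for copper and 1.15 and 1.12 for BCS. Between them, 93-3_5.6A1153 had 0.57 for BCS and -0.07 for copper, and 93-3_5.6A1154 had 1.72 for BCS and -0.32 for copper, and both missed the copper limit.

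Lengths of the stepwise models were close to those of other models. The median coding length was 1035 bases over the 89 numbered stepwise models and 1143 bases over all numbered tested models. The supplementary stepwise models had a median length of 2044 bases, against 1995 bases over all supplementary tested models. With BCS the median stepwise model stood at 68.0 FPKM, above the upper quartile of all tested models (62.7 FPKM). With copper the median was 6.38 FPKM for the stepwise models and 23.9 FPKM for all tested models, and in the control 20.8 and 21.3 FPKM. The conditions set a lowest level with BCS and the order of the groups, so these levels are shaped by the choice of models.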

How the data were processed

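Total RNA of Ts93 was sequenced in 9 libraries. Per the labels' protocols, Trizol was used for extraction and a NEBNext Ultra kit for the libraries. The authors deposited 1 table of FPKM values, 1 column per library. The submitters' processing notes name TopHat2 2.0.12 and Bowtie2 2.2.3, HTSeq 0.6.1, and also DESeq 1.18.0, without roles. They list mm8, a mouse build; the genome and annotation behind the models are therefore not given in any source here. FPKM depends on the models' lengths and on each library's total, so a few abundant models shift all others.

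Library totals, model lengths and reads were recovered from the FPKM steps (100.0% of values above 0 whole within 0.01 reads; reads summed to 99.948% to 99.979% of the totals). Lengths of numbered models with at least 50 reads were multiples of 3 in 99.5% of cases and are called coding lengths. Libraries of a group differed well beyond counting noise (chi-square per degree of freedom 26.9 to 255.6).

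Calls came from limma 3.58.1 (R 4.3.3, mean-variance trend) on log2(FPKM + 1), fitted to 9 libraries with 1 mean per group, over the 7857 models that reached 1 FPKM in 3 or more libraries, with two-sided tests at a Benjamini-Hochberg adjusted p under 0.05. The recovery and the fit were tested on simulated data. Named models were the 2 highest log2 ratios of BCS against control, the 2 lowest of copper against control, the next 2 lowest of copper against BCS and the 2 highest means with BCS; others are marked. The models and the naming rule were chosen with earlier results of these data known. Figures were drawn with matplotlib 3.10.9.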

Additional observations from a re-analysis of the deposited data

How the results depend on the processing

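All 119 stepwise models kept both directions against the control after TPM scaling, median-of-ratios scaling and quantile normalization. The limits of 0.5 and -0.5 left little room for a change of direction, because these scalings moved the median over all tested models by much less. The kept directions therefore carry no support. The conditions themselves were met by 90, 171 and 164 models under these scalings (87, 112 and 110 of the 119), and 80 models met them under every scaling, a count added after the data were seen. The median log2 ratio of copper against control over all tested models was 0.11 from FPKM, 0.23 on the TPM scale and -0.04 after median-of-ratios scaling. With log2 limits of 1 the conditions held for 47 models, with median log2 ratios of -1.64 for copper and 1.82 for BCS and shares of all FPKM of 0.171% with copper, 2.18% with BCS and 0.534% in the control. With a pseudocount of 0.1 the median for copper was -1.08. Shares of all FPKM for the models chosen again were 0.462% with copper, 3.32% with BCS and 1.01% in the control on the TPM scale, 1.66%, 6.44% and 2.61% after median-of-ratios scaling, and 0.603% with copper after quantile normalization. The cause of these shifts was not tested. Leaving out 1 library at a time, 115 to 144 models met the conditions, 79 of them in every case, with median log2 ratios of -1.03 to -0.87 for copper and 1.26 to 1.41 for BCS. The shares were then 0.687% to 1.77% with copper, 4.06% to 7.54% with BCS and 1.33% to 3.01% in the control. In either direction, limma called 289 to 1135 tested models for copper against control, 755 to 2282 for BCS against control and 1814 to 3743 for copper against BCS. Of the 119 stepwise models, 27 to 72, 75 to 103 and 119 were then called in the direction of the conditions. Over all tested models the shares called in that direction were 1.39% to 4.24%, 4.2% to 8.41% and 7.79% to 12.2%. With the replicate number as a block, 556, 1152 and 2435 tested models were called in either direction. In the direction of the conditions, 46, 94 and 119 stepwise models were called, and 2.28%, 6.26% and 10.3% of all tested models. Deviations of same-numbered libraries correlated at -0.276 to 0.211, and those of differently numbered libraries at -0.308 to 0.334. The labels do not say that a number marks a shared batch, so the numbers were not taken to pair the libraries. The median log2 ratios of models chosen again could not change sign, because the conditions fix the sign in every model. The original 119 had medians for copper of -0.81 on the TPM scale, -1.05 after median-of-ratios scaling and -1.06 after quantile normalization. For BCS these medians were 1.40, 1.43 and 1.38. The balance of higher against lower calls over all tested models in both copper comparisons, and of models falling against rising stepwise, did turn round after median-of-ratios scaling. After quantile normalization only the balance of falling against rising models turned round, at 164 against 125. The calls were then 414 higher and 386 lower for copper against control, and 1451 and 1373 for copper against BCS. Depth limits the copper levels of the 19 models with fewer than 10 reads in a copper library.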
